A study of Homo sapiens with 12 samples.

Results

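The genes described here are the ER chaperone and unfolded protein response genes: 33 genes for protein folding, disulfide bond formation, translocation, export and degradation in the endoplasmic reticulum (ER), with the sensors that control them. They were listed by name and found among the 25435 gene symbols of a count table. The cells were LMSU, a line labelled as human gastric cancer with mutant p53 (R175H), kept in Ham's F-10 medium. RNA was sequenced in 12 libraries that form 6 groups of 2. In the knockdown arm, all labelled as treated with doxycycline, cells with p53 shRNA-1 or p53 shRNA-2 (labelled without the p53 variant) were set against cells with a scramble shRNA and cells with vector (both labelled with the variant). In the knockout arm, all labelled as without doxycycline, cells with GFP and sg-1 (the p53 knockout, labelled without the variant) were set against cells with GFP and V2 (the knockout control, labelled with it). No label says whether a group is a clone or a pool, or whether its libraries came from separate cultures, so p-values measure the spread between libraries, which may be technical.

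Proteins that enter the ER are bound by chaperones such as BiP (HSPA5), receive disulfide bonds from protein disulfide isomerases, and are either exported in COPII vesicles or returned to the cytosol for degradation (ER-associated degradation, ERAD). When unfolded proteins accumulate, the sensors IRE1 (ERN1), ATF6 and PERK (EIF2AK3) start the unfolded protein response. IRE1 splices XBP1 mRNA, ATF6 is cleaved into a transcription factor, and PERK slows translation and raises ATF4. Spliced XBP1 is known to raise DNAJB9, DNAJB11, EDEM1, SYVN1 and PDIA6, and ATF6 is known to raise HSPA5, HSP90B1 and CALR, although many genes respond to both. Splicing of XBP1 and cleavage of ATF6 are not visible in counts per gene.

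The elements through which ATF6 and XBP1 act are known, so the promoters of the members were searched for them. RefSeq promoter windows (GRCh38.p14, 250 bases before each annotated start) matched 29 of the 33 members, and DERL1, DERL3, PDIA3 and SEC24D were not matched. The ER stress element (ERSE), searched as CCAAT, 9 bases of any kind and CCACG on both strands, was present in 7 of the 29 members (24.1%), against 25 of 27305 genes (0.0916%). Those members were HSPA5, HSP90B1, CALR, CANX, PDIA6, CRELD2 and XBP1. ERSE-II, which is ATTGG, 1 base of any kind and CCACG, was present in 3 members (10.3%), HYOU1, HERPUD1 and SDF2L1, against 0.0659% of all genes. The XBP1 site called UPRE, searched as TGACGTGG, was present in HYOU1, where it overlaps an ERSE-II, and in SSR3 (6.9% of members against 0.78% of all genes). The short core CCACG, which is part of both ERSE and ERSE-II, was present in 22 members (75.9%) and in 37.5% of all genes. A gene with several annotated starts counted as a match if any of its windows held the element. Other starts of CANX, PDIA6 and XBP1 had windows without an ERSE, and other starts of SSR3 had windows without a UPRE. A match describes these letters and not a bound site. The members were listed as known genes of this response. Their higher share of its known elements is therefore a description and not a result of these data.

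The windows of 8 members are shown because the results below turn on these genes. Capitals mark an ERSE, except in HYOU1, where they mark its ERSE-II matches and UPRE, and in HERPUD1, where they mark its ERSE-II. The EDEM1 window, from a gene that differed between the hairpins, held none of the longer elements. Coordinates are on GRCh38.p14: HSPA5 chr9:125241344-125241593 (minus strand), HSP90B1 chr12:103930160-103930409 (plus strand), HYOU1 chr11:119057206-119057455 (minus strand), CALR chr19:12938359-12938608 (plus strand), PDIA6 chr2:10812786-10813035 (minus strand), XBP1 chr22:28800570-28800819 (minus strand), HERPUD1 chr16:56931892-56932141 (plus strand) and EDEM1 chr3:5187457-5187706 (plus strand). Each sequence is written 5′ to 3′ on the strand of its gene and ends at the base before the start.
HSPA5: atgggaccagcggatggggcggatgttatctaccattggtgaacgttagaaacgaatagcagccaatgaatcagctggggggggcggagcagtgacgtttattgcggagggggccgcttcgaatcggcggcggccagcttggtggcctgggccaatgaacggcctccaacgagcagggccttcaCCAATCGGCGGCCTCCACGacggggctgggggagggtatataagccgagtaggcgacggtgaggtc
HSP90B1: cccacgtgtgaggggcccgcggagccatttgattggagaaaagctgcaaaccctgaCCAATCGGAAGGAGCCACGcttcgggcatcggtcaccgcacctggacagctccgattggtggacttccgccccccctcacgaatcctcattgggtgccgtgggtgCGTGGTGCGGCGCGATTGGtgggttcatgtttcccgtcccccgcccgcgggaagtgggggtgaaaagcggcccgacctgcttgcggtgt
HYOU1: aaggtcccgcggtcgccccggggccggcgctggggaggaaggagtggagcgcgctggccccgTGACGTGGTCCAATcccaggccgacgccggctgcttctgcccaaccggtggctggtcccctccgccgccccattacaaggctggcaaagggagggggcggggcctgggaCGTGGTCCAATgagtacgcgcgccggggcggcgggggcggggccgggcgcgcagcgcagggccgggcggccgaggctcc
CALR: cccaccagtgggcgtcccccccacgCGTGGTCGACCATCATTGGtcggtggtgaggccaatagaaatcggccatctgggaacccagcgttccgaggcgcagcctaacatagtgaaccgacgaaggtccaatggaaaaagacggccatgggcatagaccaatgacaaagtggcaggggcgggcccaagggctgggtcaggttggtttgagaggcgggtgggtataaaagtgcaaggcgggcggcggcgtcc
PDIA6: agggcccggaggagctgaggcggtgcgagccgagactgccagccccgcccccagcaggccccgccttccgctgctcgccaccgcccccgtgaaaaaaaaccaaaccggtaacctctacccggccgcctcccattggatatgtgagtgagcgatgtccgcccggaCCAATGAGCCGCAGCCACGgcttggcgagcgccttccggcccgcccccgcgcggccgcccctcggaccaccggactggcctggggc
XBP1: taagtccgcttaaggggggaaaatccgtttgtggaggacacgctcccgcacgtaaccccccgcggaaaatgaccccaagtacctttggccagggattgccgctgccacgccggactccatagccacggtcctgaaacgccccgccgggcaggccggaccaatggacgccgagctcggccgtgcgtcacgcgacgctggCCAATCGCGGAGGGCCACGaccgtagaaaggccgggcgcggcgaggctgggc
HERPUD1: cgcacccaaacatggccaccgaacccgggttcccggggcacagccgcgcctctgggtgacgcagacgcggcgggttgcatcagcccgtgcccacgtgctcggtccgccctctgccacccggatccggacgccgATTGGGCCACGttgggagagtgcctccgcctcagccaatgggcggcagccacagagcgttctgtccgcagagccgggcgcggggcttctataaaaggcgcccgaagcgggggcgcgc
EDEM1: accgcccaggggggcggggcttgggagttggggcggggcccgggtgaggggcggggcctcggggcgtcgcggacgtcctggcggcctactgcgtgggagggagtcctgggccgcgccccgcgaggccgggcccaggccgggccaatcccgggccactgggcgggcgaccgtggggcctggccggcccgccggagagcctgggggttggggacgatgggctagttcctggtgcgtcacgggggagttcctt
In the windows shown, the ERSE of HSPA5 lay 66 to 48 bases before the start and that of XBP1 52 to 34 bases before it. HSP90B1 held 2 ERSE matches, at 194 to 176 and at 89 to 71 bases, and HYOU1 held 2 ERSE-II matches, at 185 to 175 and at 79 to 69 bases.

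Library totals were 9738094 to 16823246 counts, and 13365 genes passed a filter on low counts. Of the 33 members 32 passed; DERL3, a derlin of ERAD, had 1 count in 1 knockout control library and 0 in the others. Variation between libraries of a group (biological coefficient of variation) was 3.08% in the knockdown arm and 15.6% in the knockout arm, and the median gap between the libraries of a group over the members was 0.030 to 0.055 on the log2 scale in the knockdown groups, 0.16 in the p53 knockout and 0.28 in the knockout control. The label of a gastric epithelial tumour line was checked against markers: 0 of the 7 gastric markers in the table passed the filter, EPCAM and CDH1 had at most 2 counts and KRT19 at most 4 in any library, while KRT8 (72.6 to 199 CPM, counts scaled to a common library size) and KRT18 (189 to 283 CPM) were present. All 11 fibroblast markers passed, and their summed level was 34519 to 36320 CPM with shRNA 1, 29787 to 29943 with shRNA 2, 31060 to 31896 in scramble, 32560 to 32716 in vector, 11860 to 12209 in the p53 knockout and 11887 to 13481 in the knockout control. The part of these differences in the results on the members was not tested.

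ER chaperone mRNA was lower with both hairpins than in scramble, with fold changes of 0.683 to 0.806 for HSPA5, HSP90B1 and HYOU1. With shRNA 1, 10 of the 32 tested members were called and all 10 fell, where 9.41% of all tested genes were called, 5.01% lower and 4.40% higher. With shRNA 2, 9 members were called and all 9 fell, where 7.74% of all genes were called, 4.15% lower and 3.58% higher. The median log2 fold change of the members was -0.27 with shRNA 1 and -0.16 with shRNA 2, against 0.0037 and -0.0035 over all tested genes. Against vector the median of the members was 0.0024 with shRNA 1 and 0.050 with shRNA 2, so the lower median was seen against scramble and not against vector. The comparisons share the scramble libraries. In bulk RNA, fewer cells of a type and less RNA per cell cannot be told apart. The threshold for a call was an adjusted p of 0.05 (edgeR quasi-likelihood F test, Benjamini-Hochberg over all tested genes), and levels are TMM-normalised CPM, which are not per length and are compared only within a gene.

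**Figure D1:**
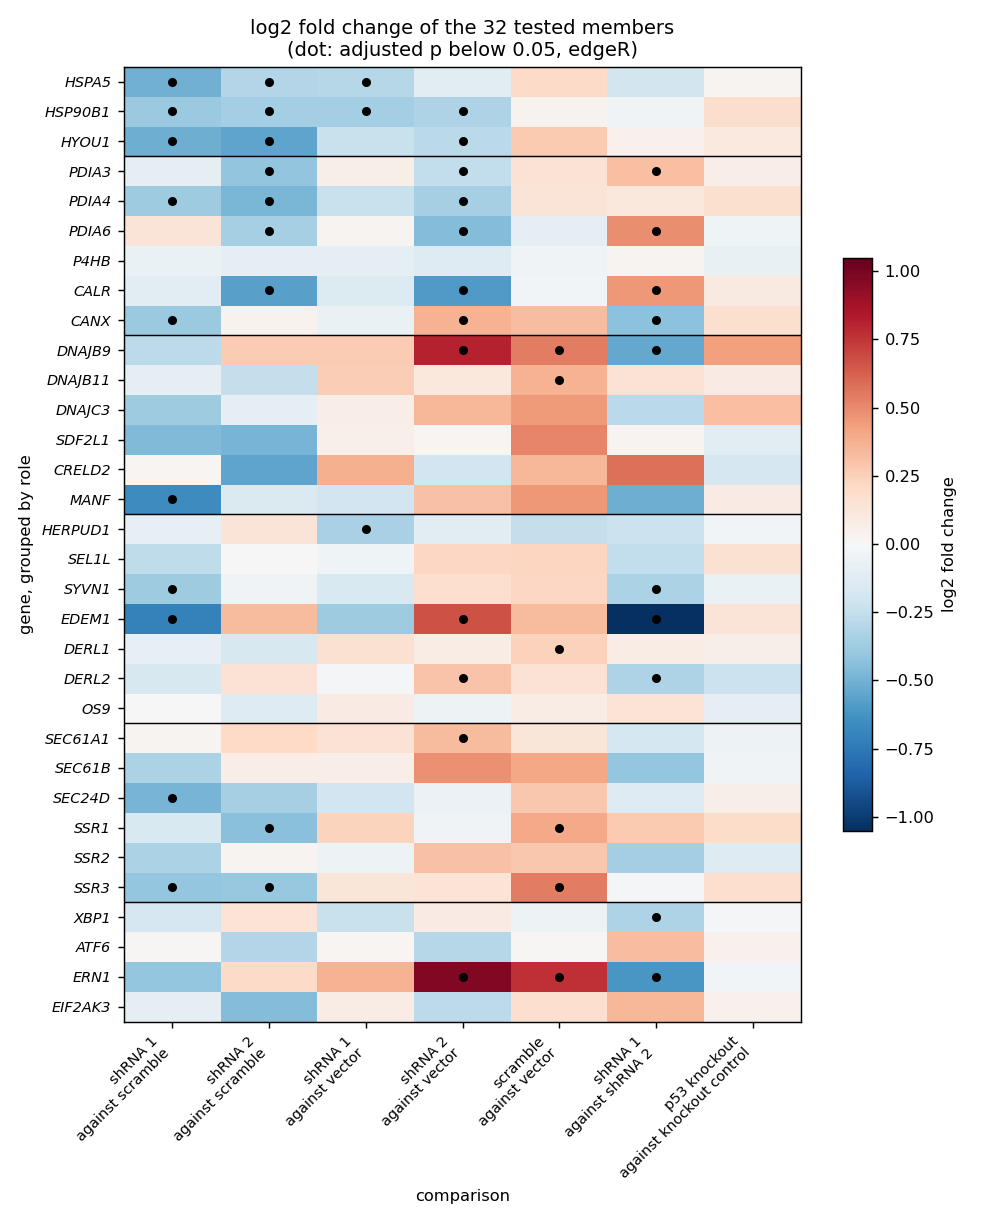
log2 fold changes of the 32 tested members (rows, grouped by role) in 7 comparisons (columns), with the group named first over the group named second; red is higher and blue is lower, and a dot marks an adjusted p below 0.05. The columns of both hairpins against scramble hold 10 and 9 dots, all on lower values, and the column of the p53 knockout holds none.

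Among the ER-resident chaperones all 3 members fell with both hairpins. HSPA5, which encodes BiP, the Hsp70 of the ER, had 802 and 811 CPM with shRNA 1 and 913 and 928 CPM with shRNA 2, against 1150.3 and 1133 CPM in scramble and 999 and 986 CPM in vector. All 4 hairpin libraries lay below all 4 control libraries, and the shRNA 1 libraries lay lowest. Relative to scramble, the log2 level of HSPA5 fell by 0.50 with shRNA 1 (SE 0.079, adjusted p = 0.0029) and by 0.31 with shRNA 2 (SE 0.079, adjusted p = 0.036). HSP90B1, the ER Hsp90 also called GRP94, had 1532 and 1509 CPM with shRNA 1 and 1576 and 1538 CPM with shRNA 2, against 2001 and 1987 CPM in scramble and 1937 and 1956 CPM in vector. The hairpin groups lay near each other, as did the controls, and the libraries did not overlap. HSP90B1 fell by 0.39 (SE 0.067, adjusted p = 0.0046) with shRNA 1 and by 0.36 (SE 0.067, adjusted p = 0.0088) with shRNA 2 relative to scramble. HYOU1, a large Hsp70-related protein that acts as a nucleotide exchange factor for BiP, had 197 and 208 CPM with shRNA 1 and 193 and 200.4 CPM with shRNA 2, against 293 and 284 CPM in scramble and 233 and 244 CPM in vector. It fell by 0.51 (SE 0.089, adjusted p = 0.0049) and by 0.55 (SE 0.089, adjusted p = 0.0038), with vector between the hairpins and scramble. These genes carry the ERSE or ERSE-II matches shown above.

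**Figure D2:**
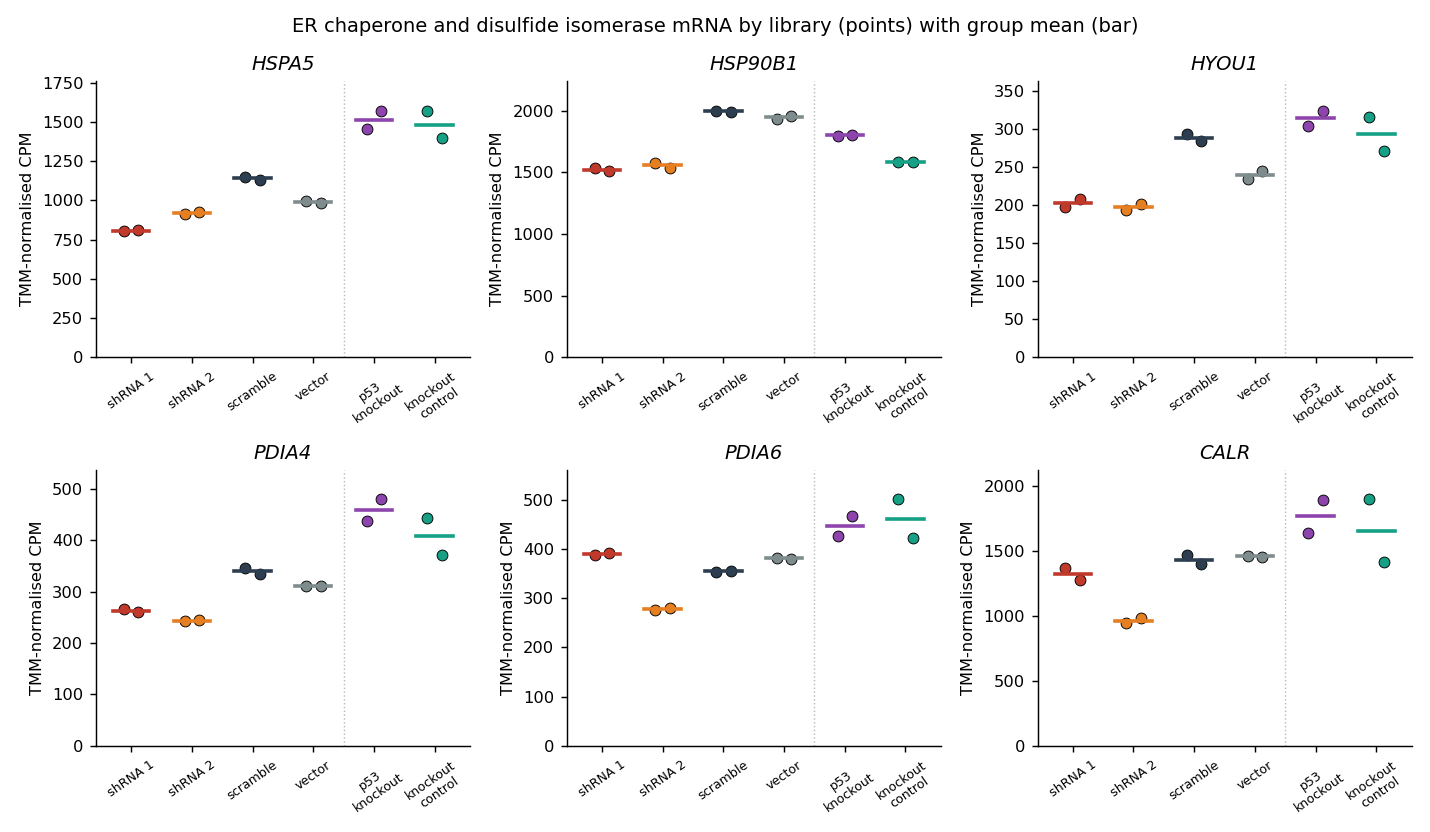
TMM-normalised CPM (vertical axis, from 0) of 3 chaperones, 2 disulfide isomerases and calreticulin in each library (points) of the 6 groups (horizontal axis), with the group mean as a bar and a dotted line between the arms. HSPA5, HSP90B1, HYOU1, PDIA4 and CALR lie below scramble and vector in all 4 hairpin libraries, and PDIA6 lies below them with shRNA 2 only.

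Of the 6 disulfide isomerases and lectin chaperones, 2 fell with shRNA 1 (PDIA4 and CANX) and 4 with shRNA 2 (PDIA3, PDIA4, PDIA6 and CALR). PDIA4, an isomerase with several thioredoxin-like domains, had 265 and 261 CPM with shRNA 1 and 242 and 245 CPM with shRNA 2, against 347 and 334 CPM in scramble and 311 and 310.1 CPM in vector. All hairpin libraries lay below all controls, and the log2 fold change over scramble was -0.37 (SE 0.092, adjusted p = 0.029) with shRNA 1 and -0.48 (SE 0.092, adjusted p = 0.0093) with shRNA 2. PDIA6, an isomerase that also binds IRE1, had 387 and 391 CPM with shRNA 1 and 275 and 279 CPM with shRNA 2, against 353 and 356 CPM in scramble and 382 and 379.8 CPM in vector. Its shRNA 1 libraries were the highest and its shRNA 2 libraries the lowest of the arm, with log2 fold changes over scramble of 0.14 (adjusted p = 0.41) for shRNA 1 and -0.35 (adjusted p = 0.035) for shRNA 2. PDIA3, the isomerase that works with the lectin chaperones on glycoproteins, had 473 and 473 CPM with shRNA 1 and 379 and 380.2 CPM with shRNA 2, against 494 and 517 CPM in scramble and 451 and 457 CPM in vector. It fell with shRNA 2 by 0.41 (adjusted p = 0.0057), and with shRNA 1 its log2 fold change was -0.10 (adjusted p = 0.48).

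Each lectin chaperone passed the test against scramble with 1 of the hairpins. CALR (calreticulin), the soluble lectin, had 1368 and 1281 CPM with shRNA 1 and 945 and 985 CPM with shRNA 2, against 1471 and 1399 CPM in scramble and 1462 and 1458 CPM in vector. It fell with shRNA 2 by 0.57 (SE 0.12, adjusted p = 0.016), while the value for shRNA 1 was -0.12 (adjusted p = 0.64). CANX (calnexin), its membrane-bound relative, had 1050.0 and 1072 CPM with shRNA 1 and 1450.1 and 1409 CPM with shRNA 2, against 1368 and 1414 CPM in scramble and 1107 and 1119 CPM in vector. CANX fell with shRNA 1 by 0.39 (adjusted p = 0.036), and for shRNA 2 the log2 fold change was 0.040 (adjusted p = 0.88). P4HB, the classical protein disulfide isomerase and a subunit of collagen prolyl hydroxylase, lay lower in all 4 hairpin libraries than in all 4 controls, but its log2 fold changes over scramble were -0.066 and -0.10 with adjusted p of 0.81 and 0.72.

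Of the 6 co-chaperones and secreted products, MANF was called against scramble, with shRNA 1. MANF, a secreted protein that binds BiP, had 73.0 and 63.6 CPM with shRNA 1 and 91.4 and 103 CPM with shRNA 2, against 113 and 103 CPM in scramble and 82.9 and 74.5 CPM in vector, a fall of 0.66 (SE 0.16, adjusted p = 0.028) with shRNA 1. DNAJB9 (ERdj4), a J-domain partner of BiP, had 69.6 and 66.0 CPM with shRNA 1 and 99.4 and 97.3 CPM with shRNA 2, against 83.5 and 80.3 CPM in scramble and 55.6 and 57.0 CPM in vector. The order of its 4 groups was shRNA 2, scramble, shRNA 1 and vector, with no overlap between neighbours, although neither hairpin passed the threshold against scramble (-0.27, adjusted p = 0.060, and 0.26, adjusted p = 0.070). DNAJB11 (ERdj3), another J-domain partner that is also secreted, had 61.2 and 60.0 CPM with shRNA 1 and 57.1 and 52.1 CPM with shRNA 2, against 66.6 and 63.4 CPM in scramble and 49.6 and 51.4 CPM in vector. SDF2L1, which forms a complex with DNAJB11, had log2 fold changes over scramble of -0.46 and -0.49 with adjusted p of 0.22 and 0.20, and CRELD2, a secreted product of ER stress, had 0.022 and -0.55 with adjusted p of 0.96 and 0.083.

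In ERAD, 2 of the 7 tested members, EDEM1 and SYVN1, fell with shRNA 1 relative to scramble. EDEM1, which recognises mannose-trimmed glycoproteins for degradation, had 76.5 and 78.9 CPM with shRNA 1 and 164 and 157 CPM with shRNA 2, against 121 and 133 CPM in scramble and 102 and 99.5 CPM in vector. The groups did not overlap, shRNA 1 was lowest and shRNA 2 highest, and the log2 fold change over scramble was -0.71 (SE 0.14, adjusted p = 0.0084) with shRNA 1 and 0.34 (SE 0.13, adjusted p = 0.17) with shRNA 2. SYVN1 (HRD1), the ubiquitin ligase of ERAD, had 124 and 123 CPM with shRNA 1 and 155 and 157 CPM with shRNA 2, against 164 and 156 CPM in scramble and 138 and 138 CPM in vector, and fell by 0.37 (adjusted p = 0.015) with shRNA 1. For shRNA 2 its log2 fold change was -0.039 (adjusted p = 0.84). DERL2, a derlin of the same membrane complex, had 49.2 and 47.2 CPM with shRNA 1 and 59.0 and 61.4 CPM with shRNA 2, against 55.5 and 52.8 CPM in scramble and 47.0 and 50.6 CPM in vector.

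Among the translocon and export genes, SSR3 fell with both hairpins, SEC24D with shRNA 1 and SSR1 with shRNA 2. SSR3, a subunit of the translocon-associated protein complex, had 472 and 462 CPM with shRNA 1 and 484 and 457 CPM with shRNA 2, against 613 and 624 CPM in scramble and 426 and 428 CPM in vector. Scramble stood above all other groups of the arm, and vector stood below both hairpins. SSR1, another subunit of that complex, had 443 and 432 CPM with shRNA 1 and 369 and 354 CPM with shRNA 2, against 482 and 497 CPM in scramble and 374 and 369 CPM in vector. SEC24D, a cargo-binding coat protein of COPII vesicles, had 242 and 239 CPM with shRNA 1 and 268 and 261 CPM with shRNA 2, against 339 and 335 CPM in scramble and 272 and 280.3 CPM in vector. It fell by 0.48 (SE 0.098, adjusted p = 0.010) with shRNA 1, and with shRNA 2 its log2 fold change was -0.35 (SE 0.097, adjusted p = 0.052). The falls of SSR3 were 0.41 (adjusted p = 0.023) and 0.39 (adjusted p = 0.029), and that of SSR1 with shRNA 2 was 0.44 (adjusted p = 0.043).

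The remaining members of these roles did not pass the threshold against scramble with either hairpin. They were the co-chaperone DNAJC3, the ERAD members HERPUD1, SEL1L, DERL1 and OS9 (a lectin that hands glycoproteins to SYVN1), the translocon pore subunits SEC61A1 and SEC61B, and SSR2 of the translocon-associated complex. Their log2 fold changes with shRNA 1 ran from -0.38 in DNAJC3 to 0.025 in SEC61A1, and with shRNA 2 from -0.17 in DERL1 to 0.21 in SEC61A1.

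In the fit to all 12 libraries the sensors and XBP1 did not pass the threshold with either hairpin against scramble. The fit to the knockdown libraries alone called XBP1 (adjusted p = 0.0060) and ERN1 (adjusted p = 3.8e-04) lower with shRNA 1, where it called 33.2% of all genes. With shRNA 2 it called ATF6 (adjusted p = 9.6e-05) and EIF2AK3 (adjusted p = 9.2e-06) lower and XBP1 and ERN1 higher, where it called 31.5% of all genes. XBP1, the transcription factor whose mRNA IRE1 splices, had 171 and 166 CPM with shRNA 1 and 211 and 211 CPM with shRNA 2, against 198 and 184 CPM in scramble and 192 and 204 CPM in vector. ERN1 had 24.1 and 26.1 CPM with shRNA 1 and 39.6 and 36.9 CPM with shRNA 2, against 33.56 and 33.01 CPM in scramble and 19.8 and 19.2 CPM in vector. Both genes were highest with shRNA 2, and ERN1 was lowest in vector. Over scramble, XBP1 had log2 fold changes of -0.18 with shRNA 1 and 0.14 with shRNA 2 (adjusted p = 0.28 and 0.42), and ERN1 had -0.41 and 0.20 (adjusted p = 0.13 and 0.49). ATF6 had 109.5 and 104 CPM with shRNA 1 and 92.1 and 78.9 CPM with shRNA 2, against 102 and 111 CPM in scramble and 103 and 107 CPM in vector, with adjusted p of 0.97 and 0.13 against scramble. EIF2AK3 had 42.5 and 42.6 CPM with shRNA 1 and 35.3 and 31.5 CPM with shRNA 2, against 46.8 and 44.5 CPM in scramble and 40.0 and 40.7 CPM in vector. Its shRNA 2 libraries lay below all others of the arm, with a log2 fold change over scramble of -0.45 (SE 0.13, adjusted p = 0.053), and with shRNA 1 of -0.10 (adjusted p = 0.70).

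The number of calls against scramble depended on the spread that was used and on the number of libraries. A fit to the 8 knockdown libraries alone, whose spread is smaller, called 20 members lower and 1 higher (PDIA6) with shRNA 1, where it called 33.2% of all genes, 16.9% lower and 16.2% higher. With shRNA 2 it called 17 lower and 6 higher (DNAJB9, HERPUD1, EDEM1, SEC61A1, XBP1 and ERN1), where it called 31.5%, 14.9% lower and 16.7% higher. For the mean of both hairpins it called 23 members lower and 1 higher, where it called 29.8% of all genes, 15.3% lower and 14.5% higher. When any 1 of the 4 compared libraries was left out, fewer members passed with either hairpin. HSPA5 passed each time with shRNA 1. Such a fit leaves a group with 1 library, and the share of all genes it called is not given here. Whether the fewer calls were particular to a library or to the members was therefore not tested. The log2 fold changes of the called members moved little: HSPA5 with shRNA 1 stayed between -0.51 and -0.49, and HYOU1 with shRNA 2 between -0.58 and -0.53, over all settings run. For the mean of both hairpins against scramble, 7 members fell (HYOU1, HSP90B1, HSPA5, PDIA4, SEC24D, SSR3 and PDIA3), where 6.77% of all genes were called, 3.66% lower and 3.11% higher. Fewer passed without either scramble library, with the same limits.

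Against vector, the members lay on both sides of 0, with 16 above and 16 below for shRNA 1 and 17 above and 15 below for shRNA 2. HSP90B1 fell with both hairpins. In the fit to all 12 libraries it was the member that passed in all 4 comparisons of a hairpin with a control. It was 1 of 32 members (3.12%), where 0.292% of all genes were called lower in all 4. In the fit to the knockdown libraries alone HSPA5, HYOU1, PDIA4 and CALR were also called lower in all 4. The share of all genes called lower in all 4 by that fit is not given here. With shRNA 1, HSP90B1 (log2 fold change -0.36, adjusted p = 0.0059), HERPUD1 (-0.34, adjusted p = 0.027), which brings ERAD components together at the membrane, and HSPA5 (-0.30, adjusted p = 0.030) fell, where 13.0% of all genes were called, 7.26% lower and 5.78% higher. With shRNA 2, 6 members fell and 6 rose, where 21.0% of all genes were called, 11.7% lower and 9.21% higher. Those that rose were DNAJB9 (0.80, adjusted p = 4.2e-05), ERN1 (0.97, adjusted p = 8.7e-04), EDEM1 (0.67, adjusted p = 0.0044), SEC61A1, the pore subunit of the translocon, CANX and DERL2. Those that fell were PDIA6 (-0.46, adjusted p = 0.0037), CALR (-0.60, adjusted p = 0.0051), HSP90B1 (-0.32, adjusted p = 0.0057), PDIA4, PDIA3 and HYOU1. When any 1 of the compared libraries was left out, fewer members passed for either hairpin against vector. A group then holds 1 library, and the share of all genes called is not given here. In the fit to the knockdown libraries alone, 12 members fell and 8 rose with shRNA 1, where 40.7% of all genes were called (21.7% lower, 19.0% higher). With shRNA 2, 10 fell and 13 rose, where 46.7% were called (24.1% lower, 22.7% higher).

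Without a test of each gene, 7 of the 32 members (21.9%) had all 4 hairpin libraries below all 4 scramble and vector libraries, where 5.69% of all genes did. They were HSPA5, HSP90B1, HYOU1, PDIA4, P4HB, CALR and SEC24D. The opposite arrangement was seen in 0 of the 32 members and in 5.57% of all genes. Both hairpins were called lower against scramble in 5 members (15.6%), HSPA5, HSP90B1, HYOU1, PDIA4 and SSR3, where 0.920% of all genes were. SSR3 is not among the 7, since its vector libraries lay below its hairpin libraries.

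The members were also compared by their promoter matches, as a description. The 10 members with an ERSE or ERSE-II had a median log2 fold change over scramble of -0.28 with shRNA 1 and -0.35 with shRNA 2, against -0.27 and -0.092 for the 19 searched members with neither element. With shRNA 1, 4 of the 10 and 5 of the 19 fell, where 5.01% of all genes did. With shRNA 2, 5 of the 10 and 3 of the 19 fell, where 4.15% of all genes did. Relative to vector the medians of the 10 were -0.19 with shRNA 1 and -0.16 with shRNA 2, against 0.069 and 0.22 for the 19. There, 3 of the 10 and 0 of the 19 fell with shRNA 1, where 7.26% of all genes did. With shRNA 2, 4 of the 10 fell and 1 rose, and 1 of the 19 fell and 5 rose, where 11.7% of all genes were called lower and 9.21% higher.

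The controls themselves differed in several members. Scramble over vector gave 6 called members, all of which rose, where 15.3% of all genes were called, 7.10% higher and 8.16% lower. The median log2 fold change of the members was 0.23, against -0.00056 over all genes, and 27 of 32 were above 0. The members that rose were DNAJB9 (0.54, SE 0.081, adjusted p = 9.95e-04), SSR3 (0.53, SE 0.096, adjusted p = 0.0031), ERN1 (0.77, SE 0.15, adjusted p = 0.0053), DNAJB11 (0.36, adjusted p = 0.029), SSR1 (0.40, adjusted p = 0.040) and DERL1 (0.24, adjusted p = 0.041), a derlin. Among the 4 groups of the knockdown arm, the mean level was highest in scramble for 16 members, in shRNA 2 for 9, in shRNA 1 for 4 and in vector for 3. No member was lowest in scramble. HSP90B1 and CALR, by contrast, had log2 fold changes of 0.035 and -0.025 between the controls (adjusted p = 0.78 and 0.92). When any 1 of the compared libraries was left out, fewer members passed between the controls. A group then holds 1 library, and the share of all genes called is not given here. The fit to the knockdown libraries alone called 22 members higher and 2 lower, where it called 42.1% of all genes (19.9% higher, 22.2% lower).

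The hairpins differed from each other in 10 of the 32 members, where 14.3% of all genes were called, 7.21% lower and 7.07% higher. Relative to shRNA 2, shRNA 1 had lower EDEM1 (-1.04, SE 0.14, adjusted p = 6.8e-04), DNAJB9 (-0.54, SE 0.081, adjusted p = 0.0015), CANX (-0.43, adjusted p = 0.017), SYVN1 (-0.33, adjusted p = 0.019), ERN1 (-0.61, SE 0.15, adjusted p = 0.021), XBP1 (-0.32, adjusted p = 0.039) and DERL2 (-0.32, adjusted p = 0.039). It had higher PDIA6 (0.49, SE 0.090, adjusted p = 0.0044), PDIA3 (0.32, adjusted p = 0.014) and CALR (0.46, adjusted p = 0.029). The XBP1 targets named above did not lie on one side: DNAJB9, EDEM1 and SYVN1 were lower with shRNA 1, PDIA6 was higher, and DNAJB11 had a log2 fold change of 0.15 (adjusted p = 0.37). In the fit to all 12 libraries the chaperones did not pass the test between the hairpins: HSP90B1 had a log2 fold change of -0.035 (approximate 95% interval -0.17 to 0.10), HYOU1 of 0.041 (-0.13 to 0.22) and HSPA5 of -0.19 (-0.35 to -0.036). The interval of HSPA5 lay wholly on the lower side, and its libraries did not overlap. The fit to the knockdown libraries alone called HSPA5 lower with shRNA 1 (adjusted p = 6.1e-05), but not HSP90B1 (adjusted p = 0.44) or HYOU1 (adjusted p = 0.59). When any 1 of the compared libraries was left out, fewer members passed between the hairpins, and EDEM1 and DNAJB9 passed each time. A group then holds 1 library, and the share of all genes called is not given here. In the fit to the knockdown libraries alone 16 members were lower and 8 higher, where 38.8% of all genes were called (20.1% lower, 18.7% higher).

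**Figure D3:**
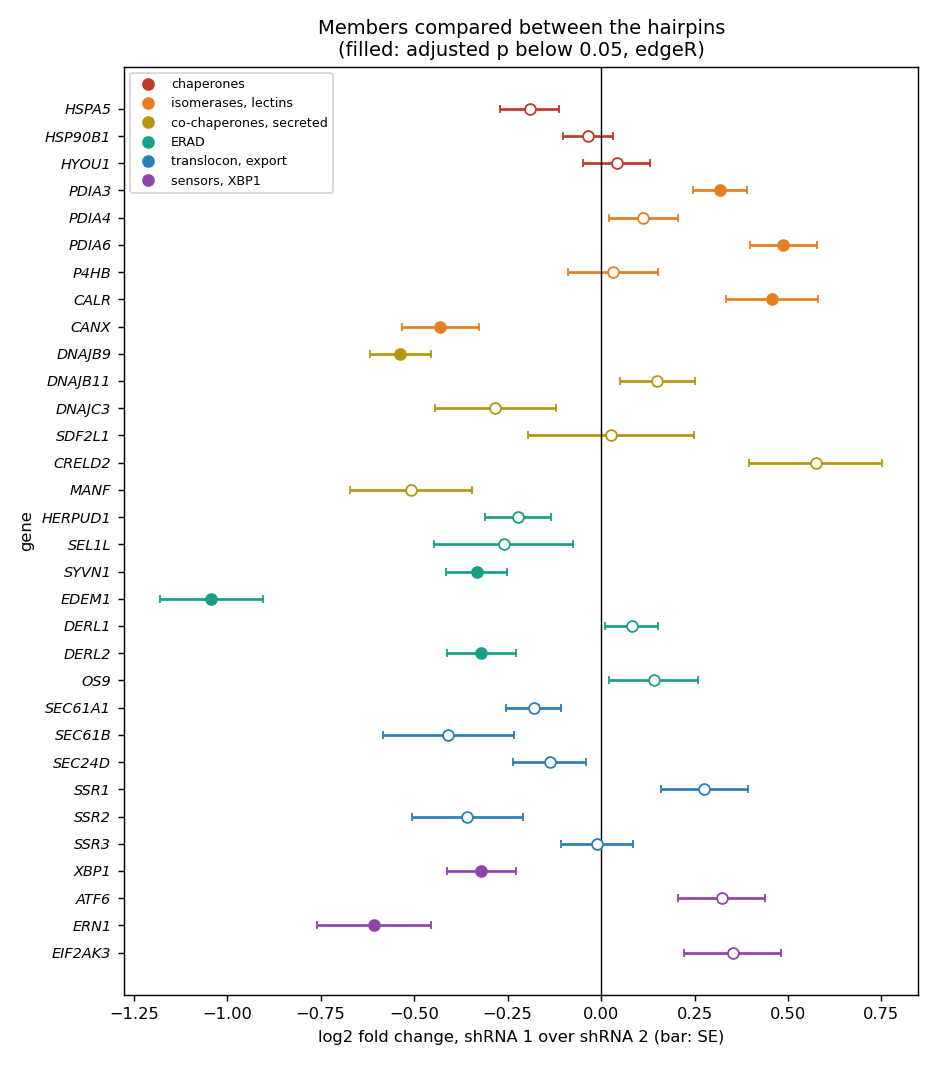
log2 fold change of shRNA 1 over shRNA 2 (horizontal axis) for the 32 tested members (vertical axis), coloured by role, with the SE as a bar and filled points for an adjusted p below 0.05. EDEM1, at -1.04, lies farthest to the lower side, and PDIA6, PDIA3 and CALR are the filled points on the higher side.

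**Figure D4:**
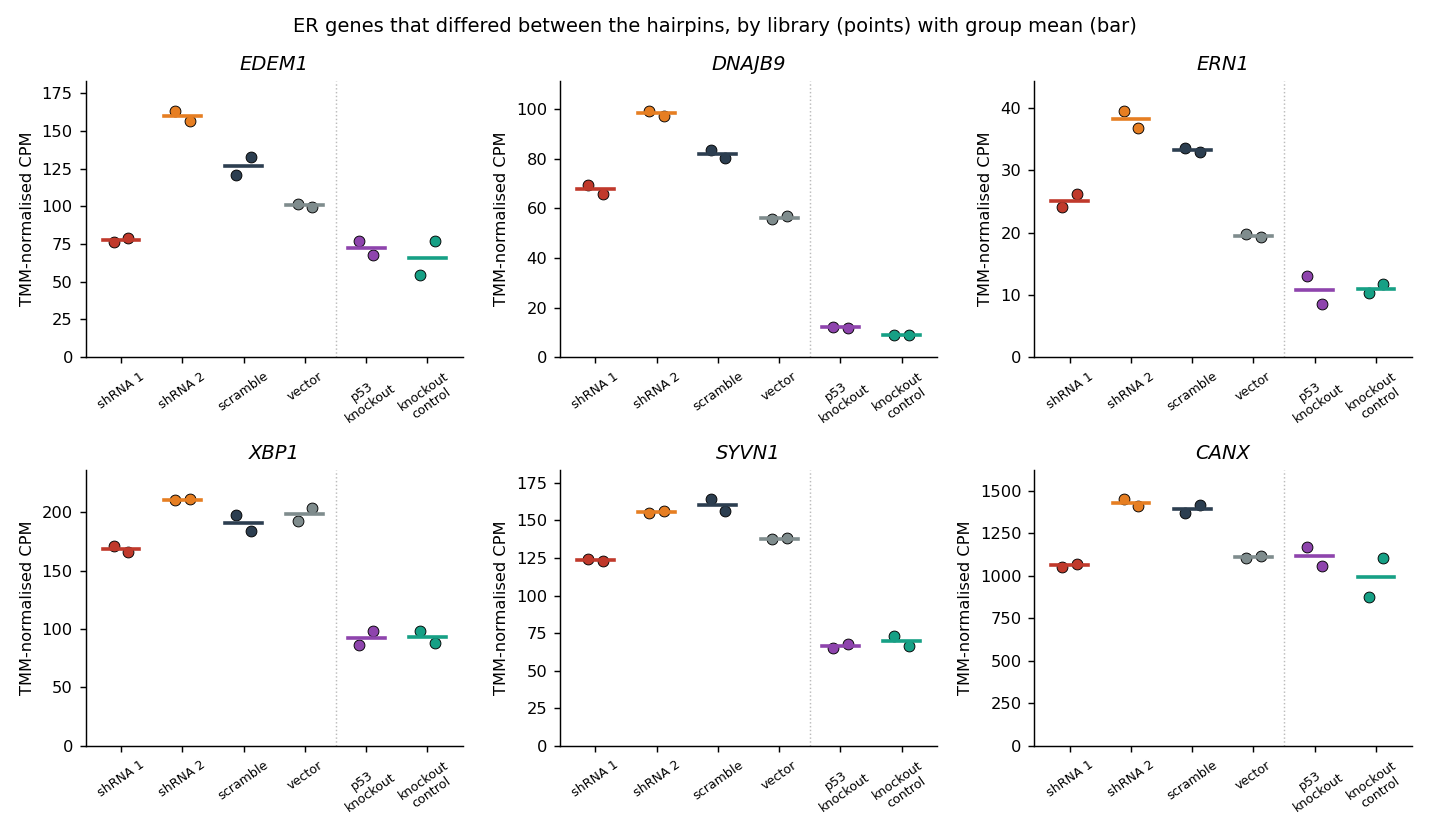
TMM-normalised CPM (vertical axis, from 0) of 6 members called between the hairpins in each library (points) of the 6 groups (horizontal axis), with the group mean as a bar and a dotted line between the arms. In all 6 genes both shRNA 1 libraries lie below both shRNA 2 libraries, and DNAJB9 is 8.90 to 12.2 CPM in the knockout arm.

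The p53 knockout gave no called member against the knockout control. In edgeR, 0 of the 32 were called and 3 had an unadjusted p below 0.05 (HSP90B1, DNAJB9 and DERL2), where 2 of 13365 genes (0.0150%) were called, and DESeq2 and limma-voom called 0 members as well. HSPA5 had 1459 and 1574 CPM in the p53 knockout, against 1569.9 and 1399.8 CPM in the knockout control, and the libraries overlapped. HSP90B1 had 1797 and 1802 CPM in the p53 knockout, against 1582 and 1584 CPM in the knockout control, a log2 fold change of 0.18 (SE 0.067, adjusted p = 0.72). DNAJB9 had 12.2 and 11.9 CPM in the p53 knockout, against 8.90 and 9.02 CPM in the knockout control (0.43, SE 0.10, adjusted p = 0.37). DERL2 had 57.3 and 62.8 CPM in the p53 knockout, against 72.0 and 68.2 CPM in the knockout control (-0.22, SE 0.090, adjusted p = 0.76). These SEs come from the fit to all 12 libraries, which pools the spread of both arms. In the fit to the knockout libraries alone the SE was 0.14 for HSP90B1, 0.17 for DNAJB9 and 0.15 for DERL2. That fit called 0 of 12776 genes. In these 3 genes the libraries did not overlap, with HSP90B1 and DNAJB9 higher and DERL2 lower in the knockout. The libraries of DERL1 and SSR3 did not overlap either (unadjusted p = 0.39 and 0.099 in edgeR). With 2 libraries per group a lack of overlap carries little weight, and its share over all genes is not given here.

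XBP1 had 86.3 and 98.3 CPM in the p53 knockout, against 98.3 and 88.0 CPM in the knockout control. ERN1 had 13.0 and 8.53 CPM in the knockout, against 10.2 and 11.7 CPM in its control. ATF6 had 97.4 and 88.3 CPM in the knockout, against 81.0 and 98.9 CPM in its control. In all 3 genes the libraries of both groups overlapped, as they did for EIF2AK3, with 19.2 and 15.4 CPM in the knockout, against 14.8 and 18.8 CPM in its control. The outcome of the knockout comparison depended on knockout control replicate 2: without it 15 of the 32 members were called, 8 higher and 7 lower, where 4135 genes (30.3%) were called. The members with the largest such values were DNAJC3 (0.66), a PERK inhibitor and BiP co-chaperone, SEL1L (0.53), the partner of SYVN1, DNAJB9 (0.44) and CRELD2 (-0.42). Without any other library of the arm 0 members were called.

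The knockout effect and the mean knockdown effect over scramble were tested against each other in one contrast. The difference was positive and passed the threshold for HSP90B1 (0.56 on the log2 scale, SE 0.089, adjusted p = 0.015), HYOU1 (0.63, SE 0.12, adjusted p = 0.033) and PDIA4 (0.60, SE 0.12, adjusted p = 0.043), where 1.10% of all genes were called and 0.643% were positive. HSPA5 had a difference of 0.44 (SE 0.10, adjusted p = 0.072). These SEs pool the spread of both arms, which is larger in the knockout arm. The median difference of the 32 members was 0.31, against -0.0078 over all genes. Scramble was the knockdown control of this contrast, and no such contrast was run with vector. In scramble over vector, 27 of the 32 members were above 0. The calls of this contrast changed when 1 library was left out, which leaves a group with 1 library. They were lost without either p53 knockout library or any library of shRNA 1, shRNA 2 or scramble. Without either knockout control library more members passed, but the share of all genes in those fits is not given here. Whether that rise was particular to the members was not tested. The arms differ in doxycycline, constructs and spread, which cannot be told apart from the way p53 was removed.

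Between the arms, levels can be set side by side but not compared as a treatment, since no group was measured in both. DNAJB9 was 8.90 to 12.2 CPM in the 4 knockout-arm libraries and 55.6 to 99.4 CPM in the 8 knockdown-arm libraries. SEC24D was 59.2 to 73.0 CPM in the knockout arm and 239 to 339 CPM in the knockdown arm. The opposite order was seen for SDF2L1, with 40.8 to 62.1 CPM in the knockout arm and 8.46 to 13.0 CPM in the knockdown arm, and for CRELD2, with 80.5 to 122 CPM and 25.0 to 37.7 CPM. In all, 13 members were lower in every knockout-arm library than in every knockdown-arm library, 6 were higher (HSPA5, PDIA4, PDIA6, DNAJB11, SDF2L1 and CRELD2) and 13 overlapped. Over all tested genes the shares were 25.5% lower and 27.2% higher. ERN1, EIF2AK3 and XBP1 were among the 13 that were lower, and ATF6 overlapped.

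**Figure D5:**
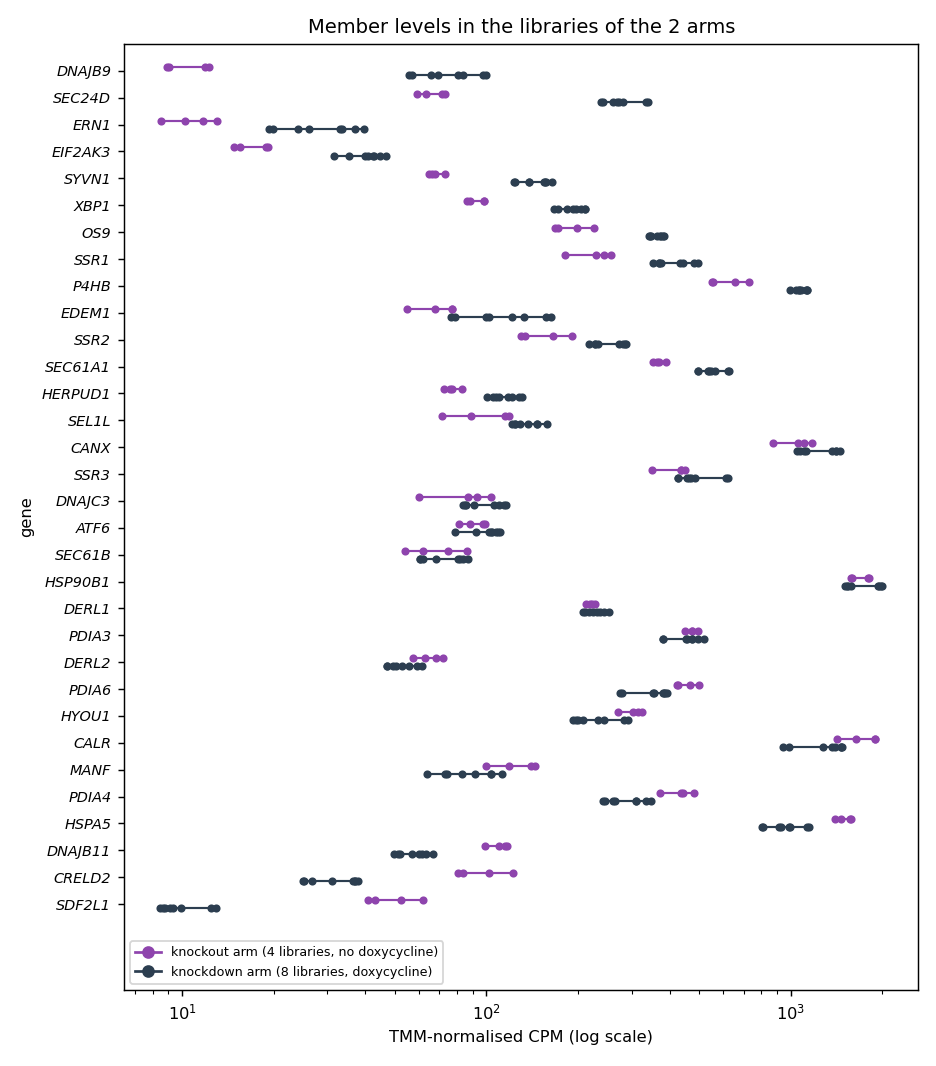
TMM-normalised CPM (horizontal axis, log scale) of the 32 tested members (vertical axis, ordered by the ratio of arm means) in the 4 knockout-arm libraries and the 8 knockdown-arm libraries, with a line from the lowest to the highest library. DNAJB9 and SEC24D, at the top, are lower in the knockout arm without overlap, and SDF2L1 and CRELD2, at the bottom, are higher.

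Other genes of the secretory pathway were followed in lists written from general knowledge. Over all tested genes, 5.01% were called lower and 4.40% higher with shRNA 1 against scramble, and 4.15% lower and 3.58% higher with shRNA 2. Against vector, 7.26% of all genes were called lower and 5.78% higher with shRNA 1, and 11.7% lower and 9.21% higher with shRNA 2. Of 26 genes for translocation and N-glycosylation, 4 fell with shRNA 1, and 4 fell and 1 rose with shRNA 2, relative to scramble. Relative to vector, 1 fell and 1 rose with shRNA 1, and 4 fell and 5 rose with shRNA 2. DDOST, a subunit of the oligosaccharyltransferase, fell by 1.35 (adjusted p = 5.4e-05) with shRNA 1 and by 0.43 (adjusted p = 0.034) with shRNA 2. OSTC, another subunit, fell by 1.14 (adjusted p = 5.5e-05) with shRNA 2, and its log2 fold change with shRNA 1 was -0.26 (adjusted p = 0.10). Relative to vector, DDOST fell by 1.15 (adjusted p = 1.1e-04) for shRNA 1 and had a log2 fold change of -0.23 (adjusted p = 0.16) for shRNA 2, and OSTC fell by 0.88 (adjusted p = 5.1e-05) for shRNA 2. Of 22 COPII and cargo export genes, 8 fell and 1 rose with shRNA 1, and 2 fell and 1 rose with shRNA 2, relative to scramble. Relative to vector, 2 fell and 1 rose with shRNA 1, and 2 fell and 2 rose with shRNA 2. These were 13.6% and 18.2% of the list, near the 13.0% and 21.0% of all genes called there. MCFD2, part of a cargo receptor for secreted glycoproteins, fell by 0.78 (adjusted p = 6.7e-04) with shRNA 1 and by 0.88 (adjusted p = 3.1e-04) with shRNA 2 relative to scramble. Relative to vector its log2 fold change was -0.25 (adjusted p = 0.10) for shRNA 1, and it fell by 0.36 (adjusted p = 0.018) for shRNA 2. Of 29 further folding genes, 1 rose and 1 fell with shRNA 1 and 2 fell with shRNA 2 relative to scramble, and 1 rose and 1 fell with shRNA 1 and 5 fell with shRNA 2 relative to vector. Of 21 further ERAD genes, the called ones moved the other way from the called members: 3 rose with shRNA 1 and 2 rose with shRNA 2 relative to scramble. The median log2 fold change of these 21 genes was -0.091 with shRNA 1 and 0.0019 with shRNA 2 relative to scramble, and 0.023 and 0.10 relative to vector. Of 18 further regulators of the response, BBC3, a pro-apoptotic gene that is also a p53 target, rose by 0.60 (adjusted p = 0.0088) with shRNA 2, and with shRNA 1 its log2 fold change was -0.42 (adjusted p = 0.053). Relative to vector, 1 of the 18 fell with shRNA 1, and 2 fell and 1 rose with shRNA 2.

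Of 20 genes of the PERK and ATF4 arm, 5 rose and 1 fell with shRNA 1 relative to scramble, where 4.40% of all genes were called higher and 5.01% lower. TRIB3, a pseudokinase induced by ATF4, rose by 0.76 (adjusted p = 0.0071), SESN2, a stress-induced regulator of mTORC1, by 0.70 (adjusted p = 0.0062), CEBPG, a partner of ATF4, by 0.69 (adjusted p = 6.9e-04), and ASNS, asparagine synthetase, by 0.65 (adjusted p = 0.0092). With shRNA 2, 2 genes rose and 1 fell, where 3.58% of all genes were called higher and 4.15% lower. ASNS was the one that fell (-1.13, adjusted p = 8.2e-04). With shRNA 1 the direction turned with the control: relative to vector all 4 called genes fell with shRNA 1, where 7.26% of all genes were called lower and 5.78% higher, and 4 fell and 2 rose with shRNA 2, where 11.7% were called lower and 9.21% higher. Over vector, the log2 fold change of TRIB3 was -0.62 (adjusted p = 0.013) for shRNA 1, and for shRNA 2 it was -1.36 (adjusted p = 4.9e-05). Between the hairpins ASNS was 1.77 higher on the log2 scale with shRNA 1 (adjusted p = 3.2e-05). Scramble over vector gave 8 genes that fell and 1 that rose, where 8.16% of all genes were called lower and 7.10% higher. Among those that fell were TRIB3 (-1.38, adjusted p = 6.7e-05), DDIT3, which encodes CHOP (-0.96, adjusted p = 0.0014), ASNS (-0.91, adjusted p = 5.2e-04) and CEBPG (-0.53, adjusted p = 0.0014). In that comparison DNAJB9, SSR3 and ERN1 rose. In the p53 knockout, DDIT3 had a log2 fold change over the knockout control of -0.38 (adjusted p = 0.76), ASNS of -0.10 (adjusted p = 0.82) and TRIB3 of -0.32 (adjusted p = 0.77).

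Exons of 20 of the 33 members overlap another annotated gene in GENCODE 29, and the strand setting of the counts is not given in the sources used here, so reads may be shared. PDIA6 shares 25.2% of its exon bases with ATP6V1C2 on the opposite strand, PDIA3 shares 14.8% with ELL3, EIF2AK3 shares 14.4% with an antisense gene and SYVN1 shares 7.24% with FAU on the same strand. Pseudogenes named after a member exist for PDIA3, SSR1 and XBP1. Values of these genes are uncertain to that extent.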

How the data were processed

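RNA from 12 LMSU libraries was measured. The table of unnormalised counts by gene symbol is as the authors deposited it. The submitters' processing notes name bcl2fastq, STAR 2.5 and, as genome build, hg19, with no role or order given. How reads were assigned to genes, with or without strand, is not stated in the labels. All values were whole numbers, and library totals were 9738094 to 16823246, so that counting error is small for all but the lowest members. The level of the targeted gene itself is not reported here.

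The analysis used edgeR 4.0.16 under R 4.3.3. Genes passed filterByExpr (minimum count 10), and library sizes were scaled with TMM. All 12 libraries were fitted together with 1 coefficient per group, contrasts were tested with the two-sided quasi-likelihood F test, and each comparison's p-values received a Benjamini-Hochberg adjustment across all 13365 genes, with a call at an adjusted p below 0.05. The SE is the log2 fold change divided by the square root of F, and approximate 95% intervals assume a normal distribution. Groups were taken from the sample labels.

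The 33 members and all lists were chosen with earlier results of these data known. Values per library are given, within each role, for the 3 members, at most, whose adjusted p was lowest over the comparisons of hairpins with scramble, of scramble with vector and of shRNA 1 with shRNA 2, and always for HSPA5, XBP1, ATF6, ERN1 and EIF2AK3; CALR and CANX were added after their values were seen, as were the members named between the arms. Up to 6 called members per comparison and up to 4 genes per other list were named by adjusted p, and DDIT3, ASNS and TRIB3 were followed into the knockout, and TRIB3, DDOST, OSTC and MCFD2 into the comparisons with vector, and OSTC, MCFD2, DDOST and ASNS into the other hairpin comparisons, after values were seen. Blood markers reached at most 0.386 CPM and endothelial markers 1.7 CPM in sum.

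Alternatives were DESeq2 1.42.0, limma-voom (limma 3.58.1), DESeq2-type size factors, no filter, a minimum count of 50, an adjusted p below 0.01, a replicate block, a fit to the libraries of 1 arm, and each library left out in turn. The procedure was tested on simulated data with 1 spread for all 12 libraries. That test does not cover the unequal spread of the arms. Promoter windows were taken from RefSeq (GRCh38.p14) by symbol and searched on both strands. Figures were drawn with matplotlib 3.10.9.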

Additional observations from a re-analysis of the deposited data

Results flagged for a closer look

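The effect of the p53 knockout over its control differed from the mean effect of the hairpins over scramble in 3 members, by a direct test of the difference with edgeR. HSP90B1 had a difference of 0.56 on the log2 scale, HYOU1 of 0.63 and PDIA4 of 0.60, all positive. HSP90B1 averaged 1799.8 and 1583.5 CPM in the p53 knockout and the knockout control, and 1520.4, 1557 and 1994 CPM with shRNA 1, with shRNA 2 and in scramble (n = 2 each). Vector, which the contrast did not use, averaged 1946 CPM. HYOU1 averaged 288 CPM in scramble and 239 CPM in vector, and PDIA4 averaged 340 and 310 CPM. The difference relative to vector was not tested, and the calls changed when 1 library was left out, as given above. The spread between libraries is larger in the knockout arm, and the fit to all 12 libraries pools it with that of the knockdown arm. For HSP90B1 the SE of the knockout effect was 0.067 in that fit and 0.14 in the fit to the knockout libraries alone. The contrast was not run with a separate spread for each arm, so the part of the spread in these calls was not tested.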

How the results depend on the processing

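Counts are members called at an adjusted p below 0.05. The shares of all genes called are given above for the main fit and the fit to 1 arm, and for most other settings they are not given. Counts from those other settings do not show whether a change was particular to the members. A fit to the libraries of 1 arm called 21 members for shRNA 1 against scramble, 23 for shRNA 2 against scramble, 24 for the mean of both hairpins, 20 for shRNA 1 against vector, 23 for shRNA 2 against vector, 24 for scramble against vector and 24 for shRNA 1 against shRNA 2, in place of 10, 9, 7, 3, 12, 6 and 10. A threshold of 0.01 left 4, 4, 4, 1, 7, 3 and 3 in the same order, and 0 of 3 for the difference between the knockout and knockdown effects. Without the filter on low counts, 10 were called for scramble against vector and 8 for the knockout minus the knockdown effect. Leaving out 1 library gave 2 to 2, 0 to 1, 0 to 6, 0 to 0, 4 to 6, 2 to 3 and 2 to 3 for these 7 comparisons, 0 to 15 for the p53 knockout and 0 to 14 for the knockout minus the knockdown effect; the group left with 1 library is assumed to vary like the others. DESeq2, limma-voom, other size factors and a minimum count of 50 kept each count within 1.5 times. The cause of these changes was not tested beyond the pooled spread, which is 9.55% over all libraries and 3.08% in the knockdown arm.

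The replicate numbers do not pair the samples: correlations of the deviations of same-numbered libraries ran from -0.47 to 0.16. With the replicate block, 5 members were called for shRNA 2 against scramble, 1 for shRNA 1 against vector and 1 for the knockout minus the knockdown effect, and the other counts stayed within 1.5 times. A crossed pairing in the knockout arm, added after seeing the data, called 72 genes and 0 members.

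Of 749 values of single called members, 494 stayed past the threshold in the same direction, 255 did not pass it and 0 changed sign. The median of the members in the p53 knockout was -0.018 without knockout control replicate 2, and that of the knockout minus the knockdown effect was 0.24 without knockout control replicate 2 and 0.24 without p53 knockout replicate 1.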
